A study of Mus musculus with 20 samples.

Results

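Mitosis and chromosome segregation genes were read in blood-forming stem and progenitor cells of mouse bone marrow. The 44 genes encode the proteins that start mitosis, build the spindle, hold and separate the chromosomes and divide the cell. They are 44 of the 55573 genes in the deposited tables. They were chosen by name and not by level, though with earlier results of these data known. All 44 had enough counts to be tested. The cells came from C57BL/6 mice aged 7 to 9 weeks. They were haematopoietic stem cells (HSC) or multipotent progenitors (MPP), sorted with or without leptin receptor (Lepr) protein on the surface. All cells lacked lineage antigens and carried Sca-1 and c-Kit. HSC were CD150+CD48- and MPP were CD150-CD48-. Each type was split by Lepr, into Lepr+ HSC and Lepr- HSC and into Lepr+ MPP and Lepr- MPP, which gives 4 groups of 5 libraries. A library came from 1000 to 8000 cells pooled from 2 mice, so no value belongs to 1 animal. The mice carried no named allele and had no named treatment.

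The libraries held 9532993 to 31589794 counts in genes, and 14972 to 22524 genes had at least 1 count. Levels are given in CPM (counts relative to the library size, which was scaled by the TMM method), in the order of replicates 1 to 5. The sort antigens were compared with the labels. Slamf1, which encodes CD150, ranged from 19.6 to 66.6 CPM in Lepr+ HSC and from 28.3 to 63.8 CPM in Lepr- HSC. It ranged from 0 to 8.07 CPM in Lepr+ MPP and from 0.0697 to 10.01 CPM in Lepr- MPP. Lepr mRNA had a median of 0.514 CPM in Lepr+ HSC against 0 in Lepr- HSC, and these groups overlapped. It had a median of 27.1 CPM in Lepr+ MPP against 0 in Lepr- MPP. In the library labelled Lepr+ MPP 1 it was 0.261 CPM, below Lepr- MPP 1 at 0.605 CPM and Lepr- MPP 4 at 0.767 CPM, so these groups overlapped too. Cd48 was read in every library, from 4.83 CPM up to 68.5 CPM, although the gate took cells without the protein. Lepr+ HSC 5 and Lepr+ MPP 4 and 5 (the number is the replicate) were the libraries least like the rest of their groups in an earlier reading of these data, and main counts are also given without these 3.

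Entry into mitosis is driven by the kinase CDK1 bound to a B-type cyclin, helped by Polo-like kinase 1 and Aurora A. The chromosomal passenger complex around Aurora B corrects faulty attachments of chromosomes to the spindle, and the spindle checkpoint holds the cell until all kinetochores are attached. CDC20 then activates the anaphase-promoting complex (APC/C), a ubiquitin ligase that marks cyclin B and securin for destruction. Many of these genes are transcribed together late in the cell cycle. The MuvB protein complex binds their promoters at a short element called CHR, as the repressor DREAM in resting cells and with B-MYB and FOXM1 in dividing cells. In adult marrow most stem cells are out of the cycle at any one time.

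Promoters from RefSeq (GRCm38.p6, 250 bases before and 50 from the annotated start) were at hand for 35 of the 44 genes. They are shown because the genes share an element that the choice by name did not use. The CHR letters TTTGAA or TTCGAA, on either strand, were in a window of 28 of the 35 genes (80.0%), against 21.7% of all 27025 genes with an entry. Within 50 bases of the start they were in 25 of 35 (71.4%), against 6.12% of all genes. CCAAT, the letters of the box bound by the factor NF-Y, was in 27 of 35 genes (77.1%), against 41.1% of all genes. Both motifs were in 25 of the 35 genes (71.4%), against 9.65% of all genes, and a CHR match overlapped a CCAAT match at 1 place. A match of letters is a description and not a measured site. The sequences below run 5′ to 3′ on the strand of the gene, from 130 bases before the start to 30 bases from it. Capitals mark CHR (TTTGAA, or TTCAAA read from the other strand) and CCAAT (or ATTGG). Cdk1, Ccnb2, Cdc20 and Ube2c are shown for the placing of both motifs near the start, and Birc5 because its window held neither.
Cdk1 (chr10:69352883-69353042, - strand): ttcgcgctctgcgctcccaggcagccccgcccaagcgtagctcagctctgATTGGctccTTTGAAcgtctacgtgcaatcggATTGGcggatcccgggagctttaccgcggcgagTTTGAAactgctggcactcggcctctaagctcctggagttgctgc
Ccnb2 (chr9:70421525-70421684, - strand): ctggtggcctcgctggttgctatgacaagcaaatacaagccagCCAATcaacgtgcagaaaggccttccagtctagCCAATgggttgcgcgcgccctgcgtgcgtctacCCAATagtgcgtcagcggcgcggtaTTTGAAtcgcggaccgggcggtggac
Cdc20 (chr4:118437314-118437473, - strand): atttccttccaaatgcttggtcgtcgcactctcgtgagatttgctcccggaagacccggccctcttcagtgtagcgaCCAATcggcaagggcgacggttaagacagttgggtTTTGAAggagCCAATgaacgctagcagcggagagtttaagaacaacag
Ube2c (chr2:164769799-164769958, + strand): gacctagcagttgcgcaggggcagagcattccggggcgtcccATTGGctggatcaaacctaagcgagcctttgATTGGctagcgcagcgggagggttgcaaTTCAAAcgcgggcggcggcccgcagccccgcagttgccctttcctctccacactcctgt
Birc5 (chr11:117849107-117849266, + strand): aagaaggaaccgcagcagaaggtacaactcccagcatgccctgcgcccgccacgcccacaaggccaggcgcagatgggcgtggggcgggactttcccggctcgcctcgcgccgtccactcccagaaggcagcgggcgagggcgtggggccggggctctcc
In Cdc20 the CHR began 18 bases before the start, and in Cdk1 the nearer of 2 began 15 bases before it. In Ccnb2 a CHR began at base 5 of the transcript, and in Ube2c one lay on the other strand 29 bases before the start. Aurkb and Pbk, which come first in the comparisons below, have no entry in the promoter table.

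As a whole the 44 genes stood highest in Lepr- HSC and lowest in Lepr+ MPP. Their mean log2 CPM was 5.30 ± 1.04 in Lepr+ HSC and 6.12 ± 0.59 in Lepr- HSC (SD, n = 5 each). It was 4.35 ± 1.25 in Lepr+ MPP and 4.83 ± 0.61 in Lepr- MPP. These spreads are wide, and neighbours in the order overlapped. Lepr+ HSC (3.75 to 6.45) and Lepr+ MPP (2.17 to 5.25) overlapped too. Summed over the 44 genes, the mean level was 3128 CPM in Lepr+ HSC and 4684 in Lepr- HSC, and for MPP 1680 CPM with Lepr and 2005 CPM without it. In such bulk samples, fewer cells of a type and less RNA per cell cannot be told apart. Per kilobase of exon, the most abundant were Cdc20, at 76.3 CPM per kb in Lepr+ HSC and 128 CPM per kb in Lepr- HSC, and Ccnb2, at 79.7 and 119 CPM per kb in the same groups. The lowest per kilobase in Lepr- HSC was Cenpf, a large kinetochore protein, at 2.25 CPM per kb.

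The first question was how HSC differ from MPP. Among Lepr- cells 15 of the 44 genes were higher in HSC at an adjusted p under 0.05 and none was lower (edgeR's quasi-likelihood test, Benjamini-Hochberg over 16509 genes). Of all genes tested, 1.22% were called higher and 1.51% lower in this comparison. The log2 fold change was above 0 for 43 of the 44 genes, against 50.5% of all genes. Its median was 1.31, against 0.01 over all genes. The 5 HSC libraries lay above the 5 MPP libraries without overlap for 21 genes, against 2.79% of all genes. Among Lepr+ cells 8 of the 44 were higher in HSC and none was lower, against 0.26% of all genes called higher and 0.206% lower. All 44 fold changes were above 0 there, against 48.4% of all genes, with a median of 0.91, and 10 genes did not overlap, against 1.11% of all genes. Each of these 8 was also among the 15. In pairs of the same replicate number, the mean log2 CPM of the 44 was higher in HSC in 4 of 5 Lepr+ pairs. In replicate 5 it differed by -0.805. Among Lepr- cells it was higher in HSC in 5 of 5 pairs. The replicate number was taken to mark a shared pool of mice, which the labels do not state. With this number as a block in the fit, 13 genes were called in Lepr+ cells and 19 in Lepr- cells, against 1.13% and 4.07% of all genes. DESeq2 called 14 and 17, against 1.14% and 2.36% of all genes. Without the 3 libraries named above the counts were 9 and 23, against 0.206% and 2.05%. The Lepr+ count was 5 without Lepr+ MPP 2 (0.0768% of all genes). Without replicate 2 of every group the counts were 2 and 8 (0.0245% and 0.379%), and without replicate 3 they were 1 and 7 (0.025% and 0.382%). When only the groups compared were fitted they were 1 and 20 (0.0204% and 1.7%). The 2 comparisons use different libraries, and their difference was tested only as the interaction given further on.

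**Figure D1:**
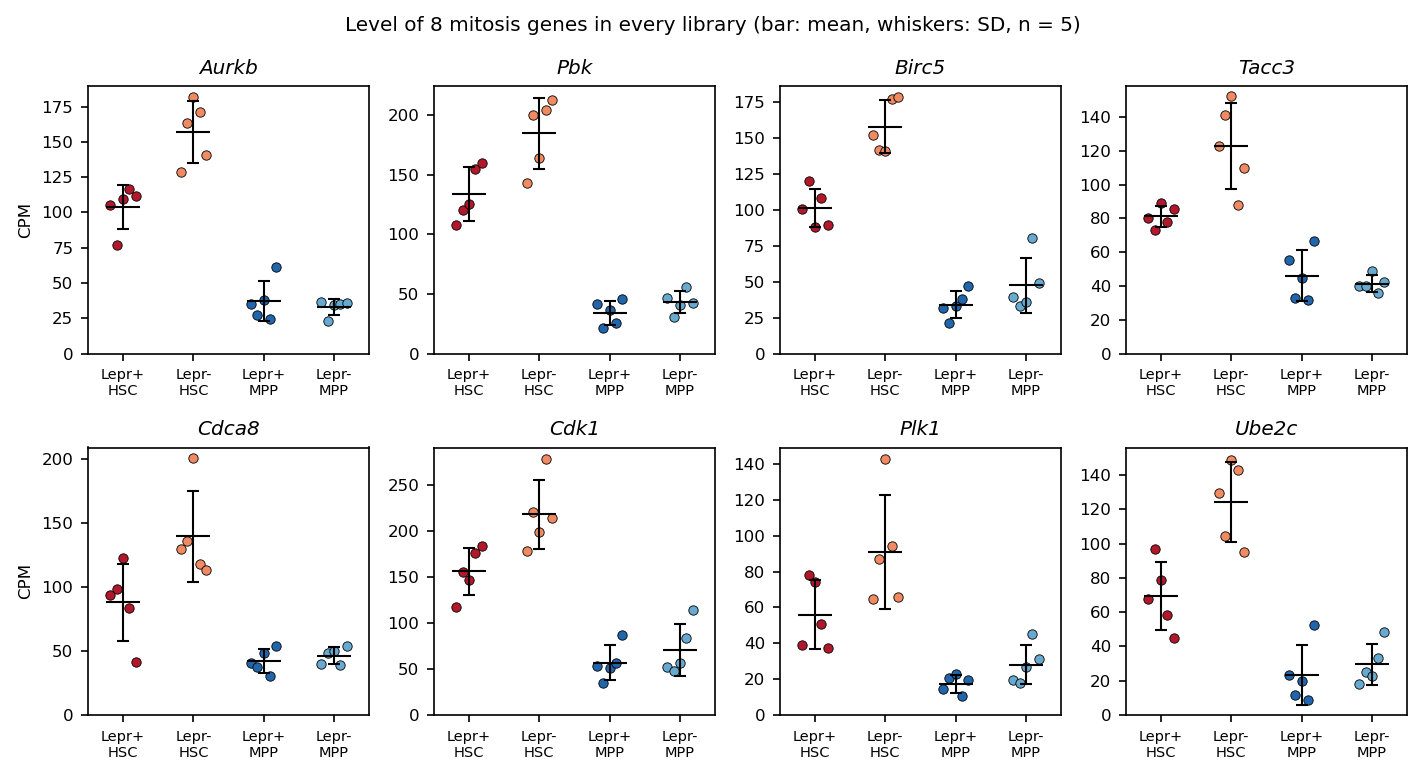
Level in CPM (vertical axis, from 0) of 8 genes in each of the 20 libraries, with HSC left of MPP and Lepr+ left of Lepr-; points are libraries, horizontal bars are means and whiskers SD (n = 5 each). Pbk stands between 108.0 and 212.4 CPM in the 10 HSC libraries and between 21.1 and 55.7 CPM in the 10 MPP libraries.

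Of CDK1 and its cyclins, Cdk1, Ccnb1 and Ccnb2 rose in Lepr- HSC, and Cdk1 also in Lepr+ HSC. Cdk1 (chr10:69335146-69352938 on GRCm38, minus strand) had 118, 156, 147, 176 and 184 CPM in the Lepr+ HSC libraries, against 178, 220.1, 199, 278 and 214 CPM in the Lepr- HSC libraries. It had 53.4, 35.2, 51, 56.4 and 87.4 CPM in the Lepr+ MPP libraries, against 51.8, 47.4, 56.9, 83.7 and 114 CPM in the Lepr- MPP libraries. Every HSC library was above every MPP library. The log2 fold change was 1.46 ± 0.25 in Lepr+ cells (adjusted p = 0.0114) and 1.62 ± 0.25 in Lepr- cells (adjusted p = 0.000877; ± is the fitted SE here and below). Ccnb1, cyclin B1, had 68.9, 150.02, 123, 124 and 76 CPM in the Lepr+ HSC libraries, against 123, 182, 209.97, 236 and 142 CPM in the Lepr- HSC libraries. In MPP it had 37.6, 48.2, 50.03, 16.6 and 60.1 CPM in the Lepr+ MPP libraries, against 39.8, 48, 54.5, 111 and 85.5 CPM in the Lepr- MPP libraries. The groups did not overlap in Lepr+ or in Lepr- cells. Its log2 fold change was 1.40 ± 0.33 in Lepr- cells (adjusted p = 0.0239), and 1.35 ± 0.33 in Lepr+ cells without passing (adjusted p = 0.0897). The Lepr- call was lost without any 1 of 6 libraries, which were Lepr- HSC 2, 3 and 4 and Lepr- MPP 1, 2 and 3, at adjusted p from 0.0528 to 0.0865. Ccnb2, cyclin B2, had 106, 139, 162, 124 and 77.7 CPM in the Lepr+ HSC libraries, against 160.2, 150.2, 197, 248 and 157 CPM in the Lepr- HSC libraries. In MPP it had 58.2, 82.2, 81.4, 64.9 and 49.9 CPM in the Lepr+ MPP libraries, against 66.4, 128, 112, 112 and 93.6 CPM in the Lepr- MPP libraries. Lepr- HSC lay above Lepr- MPP without overlap, whereas Lepr+ HSC 5 lay below Lepr+ MPP 2 and 3. The Lepr- difference of 0.83 ± 0.22 (adjusted p = 0.0469) sat at the threshold and was lost in 16 of the 20 fits that left out 1 library, at adjusted p from 0.0548 to 0.169. In Lepr+ cells Ccnb2 had 0.86 ± 0.22 (adjusted p = 0.112, 0.0105 with the replicate block, and 0.0161 in DESeq2). Ccna2, cyclin A2, which acts from S phase to early mitosis, had 1.38 ± 0.38 in Lepr- cells (adjusted p = 0.0603, and 0.0332 with the block). Cdc25c, the phosphatase that activates CDK1, had 1.18 ± 0.62 (adjusted p = 0.482).

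The mitotic kinases Aurka, Plk1 and Pbk rose in HSC of both kinds. Pbk (chr14:65805837-65817822, plus strand), a kinase active in mitosis, had 108, 121, 125, 155 and 159.7 CPM in the Lepr+ HSC libraries, against 143, 199.998, 164, 204 and 212 CPM in the Lepr- HSC libraries. It had 41.4, 21.1, 36.1, 25.4 and 45.6 CPM in the Lepr+ MPP libraries, against 46.7, 30.5, 40.4, 55.6 and 42.5 CPM in the Lepr- MPP libraries. Even the lowest HSC library was above the highest MPP library. Its log2 fold change was 1.98 ± 0.22 in Lepr+ cells (adjusted p = 0.000189) and 2.098 ± 0.22 in Lepr- cells (adjusted p = 2.4e-05). Plk1, which acts at centrosomes, kinetochores and the cleavage furrow, had 38.9, 78, 74.4, 51 and 37.5 CPM in the Lepr+ HSC libraries, against 64.8, 86.8, 143, 94.1 and 65.8 CPM in the Lepr- HSC libraries. In MPP it had 14.3, 20.4, 23, 10.4 and 19.3 CPM in the Lepr+ MPP libraries, against 19.4, 17.8, 26.7, 45.3 and 31.1 CPM in the Lepr- MPP libraries. No HSC library was as low as an MPP library of the same Lepr class. HSC over MPP gave a log2 fold change of 1.68 ± 0.32 in Lepr+ cells (adjusted p = 0.0176) and 1.70 ± 0.32 in Lepr- cells (adjusted p = 0.00395). In Lepr+ cells it was lost without Lepr+ HSC 2, Lepr+ MPP 1 or Lepr+ MPP 2, at adjusted p from 0.0521 to 0.0639. Aurka, the Aurora kinase of centrosomes and spindle poles, had 45.5, 106, 92.8, 74.7 and 36.8 CPM in the Lepr+ HSC libraries, against 87.4, 98.8, 114, 119 and 78.4 CPM in the Lepr- HSC libraries. It had 29, 23.7, 41.7, 19.99 and 24.5 CPM in the Lepr+ MPP libraries, against 31.4, 27, 35.6, 54.7 and 32 CPM in the Lepr- MPP libraries. Lepr+ HSC 5 was below Lepr+ MPP 3, and the Lepr- groups did not overlap. On the log2 scale the difference was 1.35 ± 0.29 in Lepr+ cells (adjusted p = 0.0351) and 1.46 ± 0.29 in Lepr- cells (adjusted p = 0.00587). The Lepr+ call was lost in 10 of the 20 fits without 1 library, at adjusted p from 0.0519 to 0.126.

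Of the 4 chromosomal passenger genes, Aurkb and Birc5 rose in both HSC groups and Cdca8 in Lepr- HSC. Aurkb (chr11:69045647-69051664, plus strand), the kinase of the complex, had 105, 77.1, 109, 116 and 112 CPM in the Lepr+ HSC libraries, against 128, 163, 182, 172 and 140.3 CPM in the Lepr- HSC libraries. It had 35.2, 27.5, 37.8, 24.5 and 61.2 CPM in the Lepr+ MPP libraries, against 36.8, 23, 34.2, 34.9 and 35.7 CPM in the Lepr- MPP libraries. HSC and MPP did not overlap, the nearest pair of libraries being Lepr+ HSC 2 (77.1 CPM) and Lepr+ MPP 5 (61.2 CPM). The log2 fold change was 1.48 ± 0.22 in Lepr+ cells (adjusted p = 0.00496) and 2.25 ± 0.23 in Lepr- cells (adjusted p = 2.37e-05), the smallest p of the 44 there. Birc5 (chr11:117849251-117855743, plus strand), which encodes survivin, the subunit that reads the centromere, had 101, 120.2, 87.9, 108 and 89.7 CPM in the Lepr+ HSC libraries, against 152, 141, 141, 177 and 178 CPM in the Lepr- HSC libraries. In MPP it had 31.4, 21, 32.8, 37.9 and 46.9 CPM in the Lepr+ MPP libraries, against 39.1, 32.7, 35.8, 80.2 and 48.7 CPM in the Lepr- MPP libraries. All HSC libraries were above all MPP libraries. Its log2 fold change was 1.58 ± 0.24 in Lepr+ cells (adjusted p = 0.00496) and 1.74 ± 0.24 in Lepr- cells (adjusted p = 0.000266). Cdca8, which encodes borealin, had 94, 98.6, 123, 83.9 and 41.2 CPM in the Lepr+ HSC libraries, against 130.3, 136, 201, 118 and 113 CPM in the Lepr- HSC libraries. It had 40.6, 37.7, 48.8, 30.7 and 53.8 CPM in the Lepr+ MPP libraries, against 40.03, 48.5, 50.1, 39.2 and 54 CPM in the Lepr- MPP libraries. Lepr+ HSC 5 lay among the MPP libraries, and the Lepr- groups did not overlap. On the log2 scale HSC differed by 1.59 ± 0.25 in Lepr- cells (adjusted p = 0.000765). In Lepr+ cells it was 1.06 ± 0.24 (adjusted p = 0.0579, 0.0216 with the block, 0.00352 in DESeq2 and 0.00796 without Lepr+ HSC 5). Incenp, the scaffold of the complex, is the longest of the 4 in coding length. It had 0.87 ± 0.85 in Lepr+ cells (adjusted p = 0.979) and 1.02 ± 0.85 in Lepr- cells (adjusted p = 0.756), with single MPP libraries down to 0.14 CPM.

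Among the 5 spindle checkpoint genes, Mad2l1 rose in both HSC groups. Mad2l1 (chr6:66535390-66547220, plus strand) encodes MAD2, which holds CDC20 inactive at unattached kinetochores. It had 96.7, 102, 111, 123 and 171 CPM in the Lepr+ HSC libraries, against 138, 143, 158, 179 and 169 CPM in the Lepr- HSC libraries. It had 51.2, 41.4, 42.7, 32.1 and 73 CPM in the Lepr+ MPP libraries, against 51.6, 58.3, 63.7, 111 and 63.6 CPM in the Lepr- MPP libraries. The groups did not overlap in Lepr+ or Lepr- cells. Its log2 fold change was 1.32 ± 0.24 in Lepr+ cells (adjusted p = 0.0134, and 0.0527 without Lepr+ MPP 2) and 1.18 ± 0.23 in Lepr- cells (adjusted p = 0.00645). Bub3 and Bub1b encode partners in the checkpoint complex, and in Lepr- cells the edgeR fit with the block called them and the fit without it did not. Bub3 had 0.59 ± 0.18 (adjusted p = 0.0999, or 0.00202 blocked and 0.0313 in DESeq2), and Bub1b had 1.15 ± 0.42 (adjusted p = 0.206, or 0.0346 blocked). The checkpoint kinases Bub1 and Ttk had log2 fold changes of 1.56 ± 0.95 and 0.72 ± 1.01 in Lepr- cells and did not pass.

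Cdc20 and Ube2c work on the APC/C, and both rose in Lepr- HSC. Cdc20 (chr4:118432901-118437352, minus strand), the activator of the ligase and target of the checkpoint, had 126, 160.4, 178, 126 and 122 CPM in the Lepr+ HSC libraries, against 191, 260.04, 266, 283 and 197 CPM in the Lepr- HSC libraries. In MPP it had 62.1, 84.2, 93.6, 63.6 and 70.3 CPM in the Lepr+ MPP libraries, against 58.3, 117, 109, 152 and 109.9 CPM in the Lepr- MPP libraries. HSC lay above MPP without overlap in both Lepr classes. The log2 fold change was 1.13 ± 0.21 in Lepr- cells (adjusted p = 0.00445). In Lepr+ cells it was 0.93 ± 0.21 (adjusted p = 0.058, 0.00628 with the block and 0.00348 in DESeq2). Ube2c (chr2:164769898-164778822, plus strand), the ubiquitin-conjugating enzyme that works with the APC/C, had 67.5, 97.2, 78.8, 58.5 and 45 CPM in the Lepr+ HSC libraries, against 129.7, 104, 149, 143 and 95.4 CPM in the Lepr- HSC libraries. It had 23.6, 12, 19.9, 8.9 and 52.4 CPM in the Lepr+ MPP libraries, against 18, 25, 22.7, 33.5 and 48.6 CPM in the Lepr- MPP libraries. Lepr+ MPP 5 reached into the range of Lepr+ HSC, and the Lepr- groups did not overlap. On the log2 scale the difference came to 2.08 ± 0.39 in Lepr- cells (adjusted p = 0.00418). It was 1.57 ± 0.38 in Lepr+ cells (adjusted p = 0.0826, and 0.0363 with the block). Of the exonic bases of Ube2c, 22.8% lie over the gene Tnnc2 on the other strand, and the libraries kept no strand, so its counts are uncertain.

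At the centromere and kinetochore 1 of 6 genes was called, Spc25 in Lepr- HSC. Spc25, a subunit of the NDC80 complex that grips microtubules, had 64.6, 72.5, 68.8, 38 and 17.7 CPM in the Lepr+ HSC libraries, against 85.5, 77.1, 73.1, 57.6 and 93.4 CPM in the Lepr- HSC libraries. It had 28.9, 17, 19.1, 22.6 and 35.7 CPM in the Lepr+ MPP libraries, against 19.98, 14.3, 13.1, 35.2 and 31 CPM in the Lepr- MPP libraries. Lepr- HSC were all above Lepr- MPP, and Lepr+ HSC 5 lay within the range of Lepr+ MPP. Its log2 fold change was 1.09 ± 0.35 in Lepr+ cells (adjusted p = 0.252) and 1.77 ± 0.36 in Lepr- cells (adjusted p = 0.00732). Its partners Ndc80 and Nuf2 had 0.74 ± 0.68 and 1.34 ± 0.84 in Lepr- cells and did not pass. Cenpa, the histone variant that marks centromeres, had 0.78 ± 0.31 in Lepr- cells (adjusted p = 0.272, and 0.0346 with the block) and 0.11 ± 0.31 in Lepr+ cells (adjusted p = 0.997).

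Of 6 spindle microtubule proteins, Tacc3 was called in Lepr- HSC. Tacc3 (chr5:33658128-33678995, plus strand), which crosslinks spindle microtubules with clathrin and the polymerase CKAP5, had 80.2, 73.3, 89.3, 77.8 and 85.5 CPM in the Lepr+ HSC libraries, against 123, 141, 152, 87.7 and 109.7 CPM in the Lepr- HSC libraries. It had 55.3, 32.9, 44.8, 31.4 and 66.5 CPM in the Lepr+ MPP libraries, against 39.9, 39.9, 49, 35.6 and 42.6 CPM in the Lepr- MPP libraries. Each HSC library was above every MPP library. This gave a log2 fold change of 1.57 ± 0.21 in Lepr- cells (adjusted p = 0.000176), and in Lepr+ cells 0.81 ± 0.20 (adjusted p = 0.0942, and 0.0168 with the block). Ckap2l, a spindle protein described in neural progenitors, had the largest fold of the 44 in Lepr- cells, 2.34 ± 0.92, but with a wide SE, and did not pass (adjusted p = 0.258). Prc1, which bundles microtubules at the spindle midzone, had 1.77 ± 0.71 (adjusted p = 0.271). Cdca3, which promotes the removal of the CDK1 inhibitor WEE1, rose in both HSC groups. It had 63.6, 80.3, 80.5, 77.9 and 45.3 CPM in the Lepr+ HSC libraries, against 82.1, 90.7, 92.6, 126 and 84.1 CPM in the Lepr- HSC libraries. In MPP it had 27.1, 22.5, 23, 28.5 and 31.7 CPM in the Lepr+ MPP libraries, against 25, 27.5, 34.8, 57.9 and 42.9 CPM in the Lepr- MPP libraries. HSC and MPP of the same Lepr class did not overlap. HSC over MPP came to a log2 fold change of 1.39 ± 0.23 in Lepr+ cells (adjusted p = 0.00907) and 1.34 ± 0.23 in Lepr- cells (adjusted p = 0.00203).

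None of the other role groups held a called gene. The 5 kinesin motors Kif11, Kif20a, Kif23, Kif2c and Kif4, which move or dismantle microtubules, had log2 fold changes from 0.30 to 0.80 in Lepr+ cells and from 0.20 to 1.29 in Lepr- cells. The 5 genes of chromosome structure were Top2a, which untangles DNA, Mki67, which coats mitotic chromosomes, the condensin subunits Smc4 and Ncapd2, and Cdca2. They ranged from 0.10 to 0.84 in Lepr+ cells and from 0.39 to 1.51 in Lepr- cells, with adjusted p of 0.225 and above. Mki67, the usual proliferation marker, had 0.78 ± 0.95 in Lepr+ cells and 1.51 ± 0.96 in Lepr- cells (adjusted p = 0.994 and 0.622). Its level was 97.8, 7.71, 142, 11.5 and 1.47 CPM in the Lepr+ HSC libraries, against 123, 37.5, 292, 10.2 and 55 CPM in the Lepr- HSC libraries. In MPP it was 37.6, 29.2, 48.1, 6.37 and 30.7 CPM in the Lepr+ MPP libraries, against 44.8, 42, 59.5, 3.7 and 31.1 CPM in the Lepr- MPP libraries. Single libraries ran from 10.2 to 291.7 CPM in Lepr- HSC and from 3.70 to 59.5 CPM in Lepr- MPP, and every pair of groups overlapped. Of the cytokinesis genes, Anln, the scaffold of the contractile ring, had 1.70 ± 1.06 in Lepr- cells. Ect2, the activator of RhoA at the cleavage furrow, had -0.38 ± 0.54 and was the only 1 of the 44 below 0 there.

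**Figure D2:**
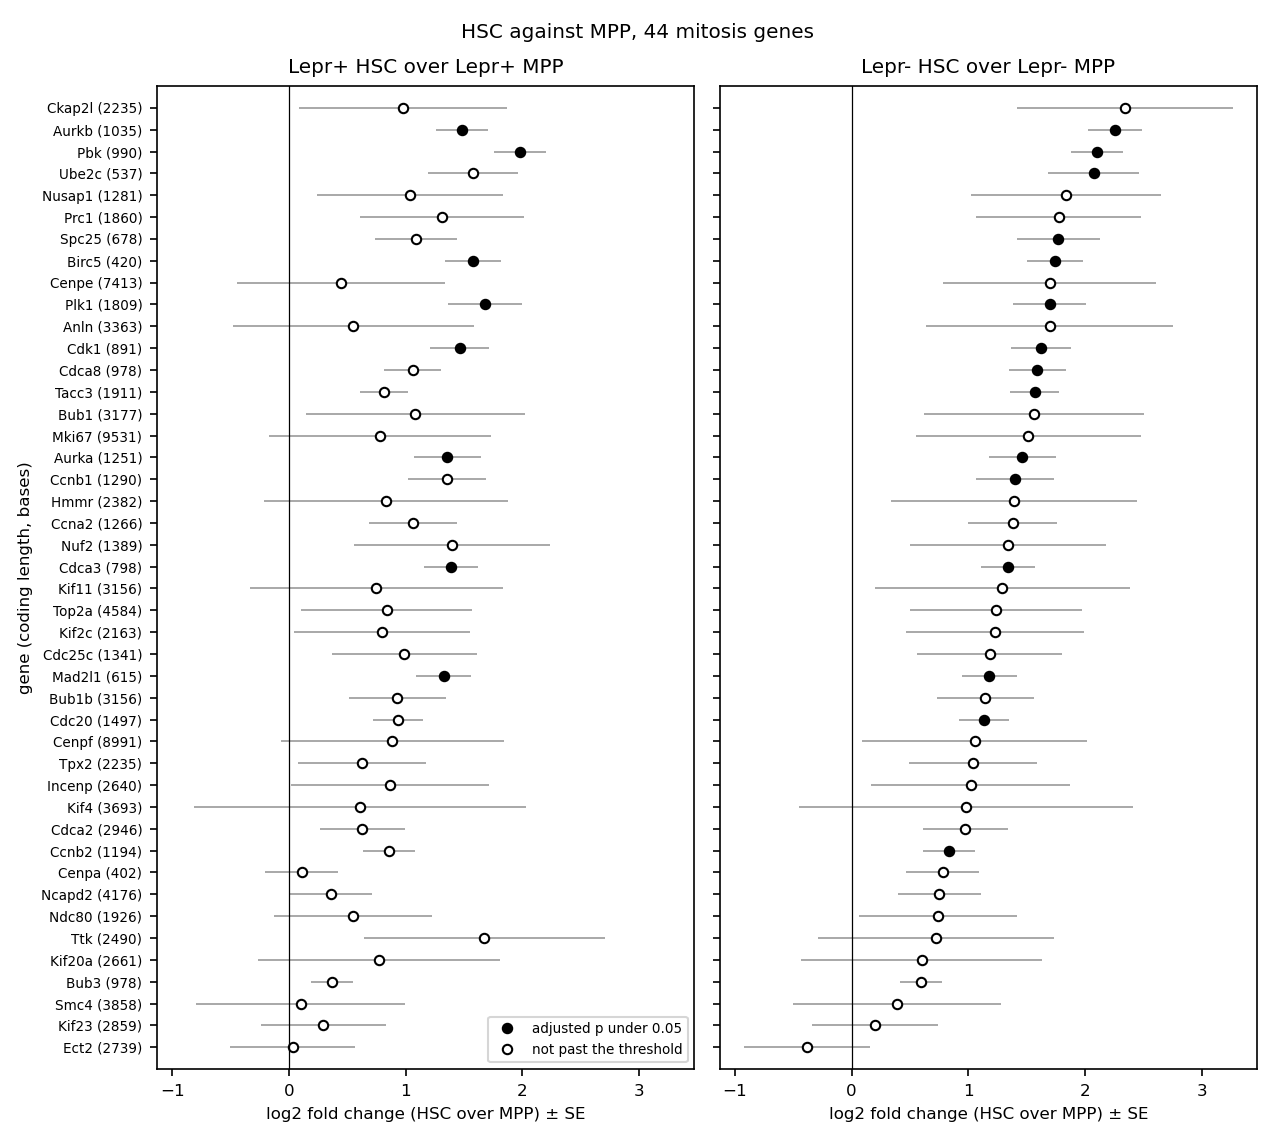
Log2 fold change of HSC over MPP (horizontal axis, lines are SE) for the 44 genes in Lepr+ cells (left) and Lepr- cells (right), with the coding length in bases beside each name; filled points passed an adjusted p of 0.05 and open points did not. All 15 filled points on the right and all 8 on the left have a coding length of at most 1911 bases.

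The calls of the edgeR fit without the block lay among the shorter genes. The 44 were split at the middle into 22 with a shorter coding length (402 to 1911 bases) and 22 with a longer one (1926 to 9531 bases), a split made after the values were seen. All 15 calls in Lepr- cells and all 8 in Lepr+ cells were in the shorter set, and with the block 1 longer gene, Bub1b, was called in Lepr- cells. The median log2 fold change was 1.32 in the shorter set and 0.76 in the longer set in Lepr+ cells, and 1.52 and 1.05 in Lepr- cells. The median SE was 0.27 in the shorter set in both comparisons, against 0.89 in the longer set in Lepr+ cells and 0.90 in Lepr- cells. Libraries differed in the level of long genes relative to short ones, and why they did was not tested. The mean log2 CPM of the shorter set exceeded that of the longer set by 1.07 to 3.99 in the 10 libraries with under 20000 genes with a count, against 0.10 to 0.74 in the other 10. The 10 libraries with fewer genes were replicates 2, 4 and 5 of both HSC groups and replicates 4 and 5 of both MPP groups. They held 9532993 to 20401662 counts, against 21560529 to 31589794 counts in the other 10. Another measure covered 5225 longer and 11130 shorter genes of those tested, split at the middle length of the 44. It was the median of longer genes minus that of shorter genes, in log2(CPM + 1) less each gene's mean over the 20 libraries. This measure was -0.65 to 0.16 in the 10 libraries with fewer genes, against 0.26 to 0.45 in the others. It is not on the scale of the gap above. Of the mitosis genes, 12 values were at 0 in the libraries with fewer genes, 9 of them in Lepr+ MPP 4, and none was at 0 in the others. Since 6 of the 10 libraries with fewer genes are HSC and 4 are MPP, the share differs between the compared groups, and its part in the results was not tested. With the length trend of each library taken out by an offset, 9 genes in Lepr+ cells and 15 in Lepr- cells were called, against 0.287% and 1.11% of all genes, with medians of 1.01 and 1.38.

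**Figure D3:**
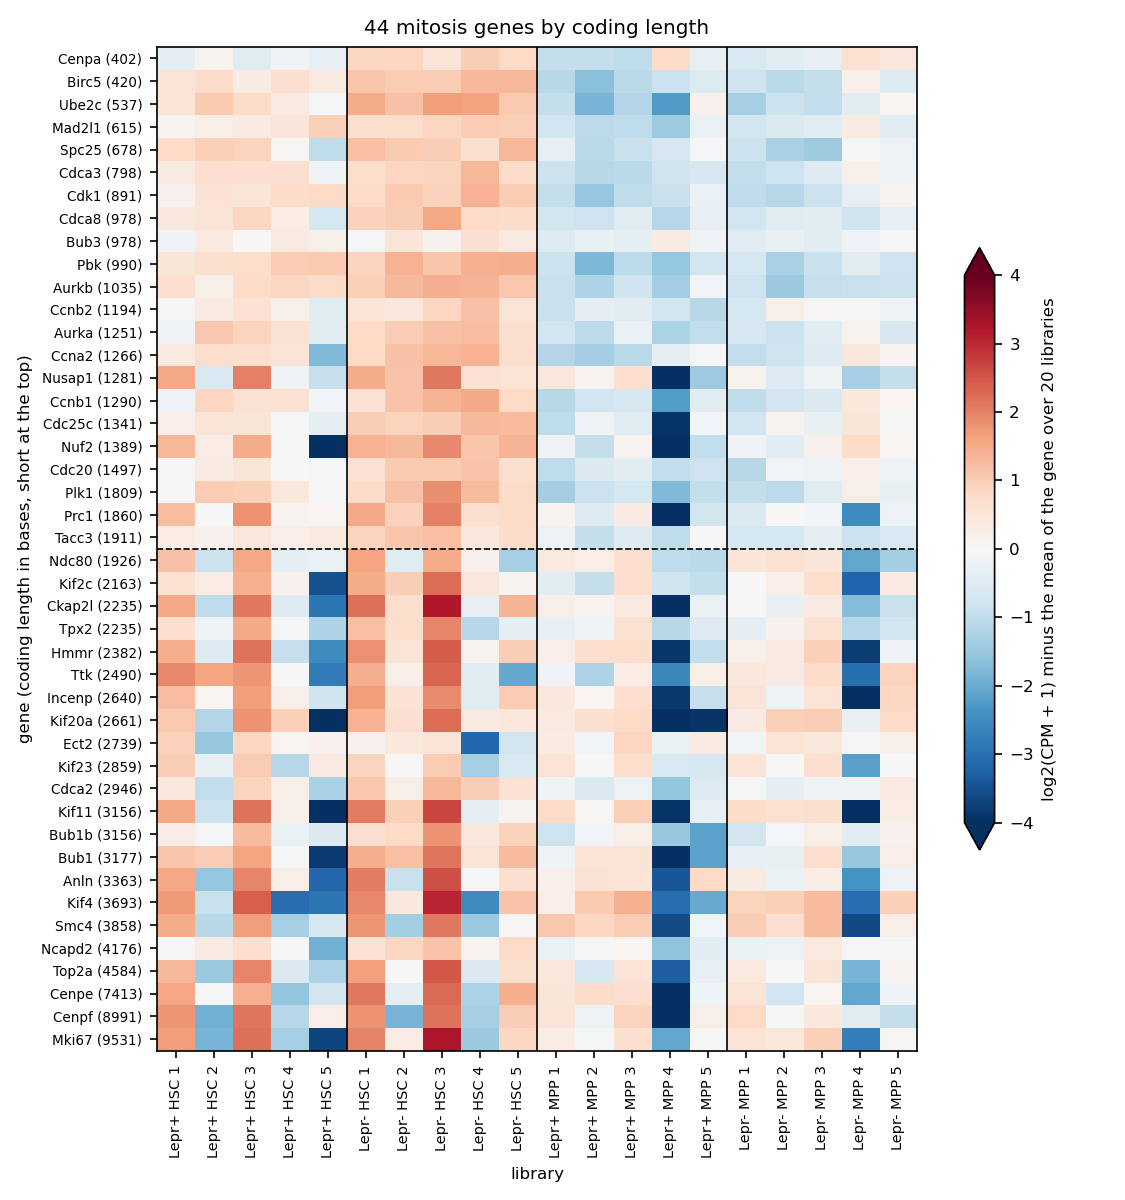
Level of the 44 genes (rows, by coding length, short at the top) in the 20 libraries (columns), as log2(CPM + 1) minus the mean of the gene over all libraries; the dashed line separates the 22 shorter and 22 longer genes. The upper block is mostly red in HSC and mostly blue in MPP. Lepr+ HSC 5 departs from this for some genes, such as Nuf2 (0.315 CPM). In the lower block colours change from library to library within each group.

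**Figure D4:**
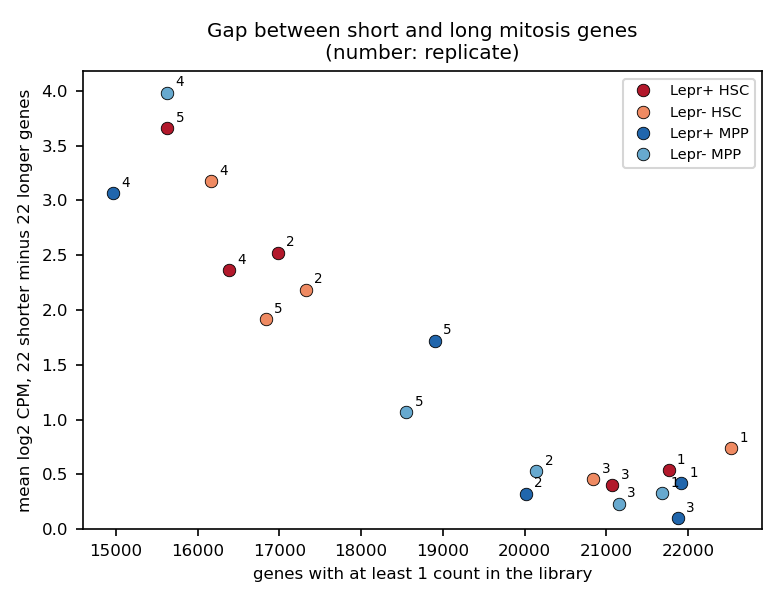
Mean log2 CPM of the 22 shorter genes minus that of the 22 longer genes (vertical axis) against the number of genes with a count (horizontal axis) in each library, coloured by group and numbered by replicate. The 10 libraries with at least 20000 genes lie between 0.10 and 0.74, and the 10 with fewer lie between 1.07 and 3.99.

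Several other measures moved with the cell type. Megakaryocyte markers, genes of platelet-forming cells, summed to 2214 to 4233 CPM in Lepr+ HSC against 1681 to 2082 in Lepr+ MPP, and to 3426 to 6729 CPM in Lepr- HSC against 1331 to 1751 in Lepr- MPP. Of 10 tested, 2 were higher in Lepr+ HSC than in Lepr+ MPP, against 0.26% of all genes. In Lepr- HSC 6 were higher than in Lepr- MPP, against 1.22% of all genes. Gp6, which encodes the platelet collagen receptor, was at 0 in all libraries of Lepr- HSC and of Lepr- MPP. Erythroid markers summed to 1954 to 3114 CPM in Lepr+ HSC against 1733 to 2553 in Lepr+ MPP, and to 2205 to 3640 CPM in Lepr- HSC against 1862 to 3644 in Lepr- MPP. Of 15 tested, 1 was higher in Lepr+ HSC than in Lepr+ MPP, against 0.26% of all genes. Stromal markers summed to 39.6 to 179.3 CPM in Lepr+ HSC against 167.3 to 4002 in Lepr+ MPP, and to 22.4 to 212.8 CPM in Lepr- HSC against 54.7 to 84.6 in Lepr- MPP. In Lepr+ cells 15 of 16 had fold changes below 0, with a median of -3.23. Of these, 1 was called lower in HSC, against 0.206% of all genes. Endothelial markers had medians of -0.998 in Lepr+ and 0.06 in Lepr- cells. In each, 1 of 13 tested was called higher in HSC, against 0.26% and 1.22% of all genes. B and plasma cell markers had medians of -2.39 and -0.37, with none called. The part of these cells in the mitosis levels was not tested. Replicates 1, 3 and 5 carry a date in June and replicates 2 and 4 a date in July. The median fold change of the 44 was 0.89 in June and 0.89 in July in Lepr+ cells, and 1.40 in June and 0.91 in July in Lepr- cells. With 3 libraries a group in June and 2 in July, none of the 44 was called in Lepr+ cells in either month, where 0.0% of all genes were called higher. In Lepr- cells 4 were called in June, against 0.192% of all genes, and none in July, against 0.0%.

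The second question was how cells with surface Lepr differ from cells without it. In HSC most of the 44 genes had fold changes below 0 with Lepr, but none passed over all genes in edgeR, nor in DESeq2 or limma voom. The log2 fold change was below 0 for 41 of the 44, against 50.3% of all genes, with a median of -0.63. At an unadjusted p under 0.05, 12 were lower and none was higher, against 2.23% of all genes lower and 4.73% higher. At an adjusted p under 0.05, 0.00606% of all genes were lower and 0.0969% were higher. For 6 genes, Cdc25c, Aurkb, Birc5, Cdc20, Cenpa and Cdca3, every Lepr+ HSC library was below every Lepr- HSC library, against 0.618% of all genes. In pairs of the same replicate number, 28 of the 44 were lower in Lepr+ HSC in 5 of 5 pairs, against 8.8% of all genes. The mean log2 CPM of the 44 was lower in Lepr+ HSC in 5 of 5 pairs, with differences from -2.12 to -0.36, and the largest gap was in replicate 5.

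Cdc20 had the smallest p. Its levels, given above, lay between 122.1 and 178.1 CPM in Lepr+ HSC and between 191.4 and 283.0 CPM in Lepr- HSC, so the groups did not overlap. Lepr+ over Lepr- HSC gave a log2 fold change of -0.75 ± 0.21 (adjusted p = 0.234). With the replicate number as a block Cdc20 passed, alone of the 44 (0.0372), against 0.26% of all genes called lower and 0.763% called higher in that fit. Cenpa (chr5:30666777-30674830, plus strand) had 86.4, 126, 81.4, 102 and 90.8 CPM in the Lepr+ HSC libraries, against 202, 205, 161, 224 and 196 CPM in the Lepr- HSC libraries. The 5 Lepr+ HSC libraries were all below the 5 Lepr- HSC libraries. This came to a log2 fold change of -1.02 ± 0.31 (adjusted p = 0.306, and 0.0521 with the block). In MPP Cenpa had 58.1, 57.3, 55.2, 190.5 and 90.3 CPM in the Lepr+ MPP libraries, against 73.5, 84.9, 90.8, 173 and 154 CPM in the Lepr- MPP libraries. In most role groups the fold changes were below 0, without a call. CDK1 and its cyclins ranged from -0.93 to -0.48, the mitotic kinases from -0.70 to -0.47, the chromosomal passenger genes from -0.66 to -0.43 and the spindle microtubule proteins from -1.16 to -0.44. Above 0 were Ect2 (0.45 ± 0.54), Ttk (0.19 ± 1.00) and Kif23 (0.14 ± 0.54). Within HSC, megakaryocyte and erythroid markers had medians of -0.51 and -1.34 in Lepr+ over Lepr- cells, and none of their tested members passed without the block. With the block, 2 of 10 megakaryocyte markers were called lower and no erythroid marker passed, against the 0.26% of all genes called lower in that fit. B and plasma cell markers summed to 51.9 to 644.2 CPM in Lepr+ HSC and 44.65 to 109.8 in Lepr- HSC. Their part in the mitosis levels was not tested. Without Lepr+ HSC 5, the library with the lowest values, the median of the 44 was -0.47.

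**Figure D5:**
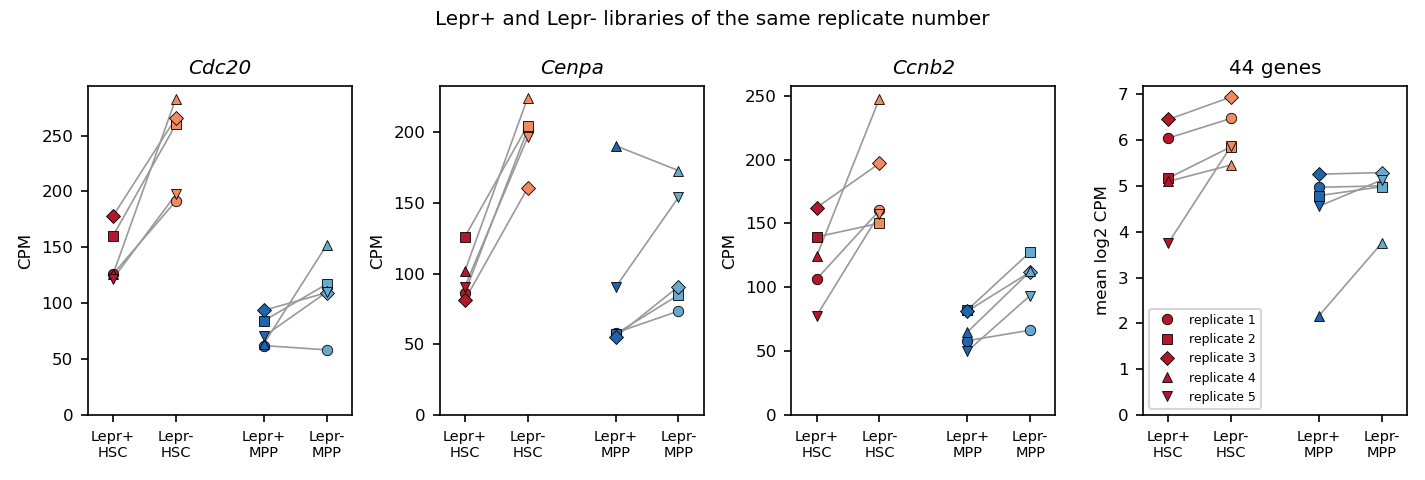
Level in CPM of Cdc20, Cenpa and Ccnb2, and mean log2 CPM of the 44 genes (vertical axes, from 0), in Lepr+ and Lepr- libraries of HSC and MPP; lines join libraries of the same replicate number and symbols mark the replicate. In HSC all 5 lines of each panel stand lower at Lepr+, and in MPP the lines of Cdc20 and Cenpa differ in direction.

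In MPP most of the 44 also had fold changes below 0 with Lepr. The median log2 fold change was -0.29, and 31 of the 44 were below 0, against 48.7% of all genes. None passed in edgeR, DESeq2 or limma voom, against 0.0242% of all genes called lower and 0.176% called higher. At an unadjusted p under 0.05, 5 were lower and none was higher, against 1.08% of all genes lower and 3.33% higher. No gene separated the groups, against 0.448% of all genes lower and 1.19% higher. In pairs of the same replicate number, the mean log2 CPM of the 44 was lower in Lepr+ MPP in 5 of 5. The differences were -0.03, -0.19, -0.04, -1.59 and -0.57 in replicates 1 to 5, so those of replicates 1 and 3 were small. Ccnb2, whose values are given above, was lower in Lepr+ MPP in 5 of 5 pairs, from 49.9 to 82.2 CPM in Lepr+ MPP against 66.4 to 127.6 in Lepr- MPP. These ranges overlapped, and the log2 fold change was -0.60 ± 0.22 (adjusted p = 0.605). Cdc20 was at 62.1 to 93.6 CPM in Lepr+ MPP and 58.3 to 151.9 in Lepr- MPP. It was lower in 4 of 5 pairs, with a log2 fold change of -0.55 ± 0.21 (adjusted p = 0.705). The median rests on few libraries, since it was -0.10 without Lepr+ MPP 4 and -0.03 without Lepr+ MPP 4 and 5 and Lepr+ HSC 5 together. B and plasma cell markers summed to 84.2 to 4478 CPM in Lepr+ MPP, with the highest sum in Lepr+ MPP 4, and to 112.3 to 280.1 CPM in Lepr- MPP, and Pax5 was at 0 in all libraries of both groups. Stromal markers summed to 167 to 4002 CPM in Lepr+ MPP and 54.7 to 84.6 in Lepr- MPP, where Adipoq, Lum, Pdgfra and Ebf3 were at 0. Of 16 stromal markers 6 were higher in Lepr+ MPP, and of 13 endothelial markers tested 3 were. Their part in the mitosis levels was not tested.

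Whether the Lepr difference in HSC departs from that in MPP was tested as an interaction. None of the 44 passed, and 0.0% of all genes did. At an unadjusted p under 0.05, 2 were lower, against 1.66% of all genes, and none was higher, against 1.54%. These were Tacc3, at -0.75 ± 0.29, and Aurkb, at -0.77 ± 0.31 (adjusted p = 1.0 for each, edgeR). For Aurkb the log2 fold change of Lepr+ over Lepr- cells was -0.60 ± 0.22 in HSC and 0.18 ± 0.22 in MPP. For Tacc3 it was -0.60 ± 0.20 in HSC and 0.16 ± 0.20 in MPP.

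Genes around the 44 were read in 5 lists. Of 83 other mitosis genes, 3 were higher in HSC among Lepr+ cells and 17 among Lepr- cells, and none was lower, at the background of 0.26% and 1.22% called higher. With the block these were 11 and 27 genes, against 1.13% and 4.07%. By smallest p they were led by Kpna2, an import factor, Melk, a kinase of dividing cells, and Spc24, the partner of Spc25, in Lepr+ cells. Kpna2, Spc24 and Depdc1b led in Lepr- cells. Kpna2 averaged 118.7 ± 20.3 CPM in Lepr+ HSC against 40.7 ± 15.96 in Lepr+ MPP, and 203.9 ± 43.7 CPM in Lepr- HSC against 62.4 ± 19.2 in Lepr- MPP (SD, n = 5). Spc24 averaged 62.7 ± 5.26 CPM in Lepr+ HSC against 26.8 ± 10.8 in Lepr+ MPP, and 97.7 ± 15.99 CPM in Lepr- HSC against 33.7 ± 11.9 in Lepr- MPP. Of 28 DNA replication genes, 5 were higher in HSC among Lepr+ cells and 10 among Lepr- cells, against 0.26% and 1.22% of all genes. With the block these were 10 and 13, against 1.13% and 4.07%. Cdc45, part of the replicative helicase, had a log2 fold change of 1.49 ± 0.21 in Lepr+ cells (adjusted p = 0.00186) and 1.58 ± 0.21 in Lepr- cells (adjusted p = 0.000176).

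The 12 cohesin genes, whose ring holds sister chromatids together, held no call, nor did the 17 APC/C subunits and regulators. With the block 3 APC/C genes were higher in Lepr- HSC than in Lepr- MPP, against 4.07% of all genes. Among them were Fbxo5, which encodes the APC/C inhibitor EMI1, and Ube2s, the enzyme that extends ubiquitin chains for the APC/C (adjusted p = 0.0133 and 0.0107). Of the 15 MuvB, DREAM and FOXM1 regulators none was called in any comparison. By smallest p they were led in Lepr- cells by Rbl1, Tfdp1 and Mybl2. Rbl1, the pocket protein p107, had 0.58 ± 0.17 in HSC over MPP (adjusted p = 0.0807, and 0.0200 with the block), and Tfdp1, the partner of E2F proteins, had 0.62 ± 0.20 (adjusted p = 0.137, and 0.0284 with the block). Mybl2, which encodes B-MYB, averaged 43.1 ± 16.02 CPM in Lepr+ HSC and 13.7 ± 9.88 in Lepr+ MPP, and 65.5 ± 21.3 CPM in Lepr- HSC and 19.3 ± 7.68 in Lepr- MPP. It did not pass (adjusted p = 0.354 in Lepr+ and 0.16 in Lepr- cells). In Lepr+ cells Tfdp1, Mybl2 and E2f7, a repressor among the E2F factors, led the list, with adjusted p from 0.335 to 0.577.

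Between Lepr+ and Lepr- cells no gene of these lists passed in HSC or MPP. In HSC the other mitosis genes of smallest p were Depdc1b, Ccnf and Cks2, at -0.91 ± 0.28, -0.85 ± 0.27 and -1.02 ± 0.32, each lower in 5 of 5 pairs. Cks2, a small subunit of CDK complexes, passed with the block (adjusted p = 0.0275, and 0.326 without it). In MPP they were Cenpt, at 0.63 ± 0.26, and Melk and Kpna2, at -0.65 ± 0.29 and -0.61 ± 0.28. Among the regulators Tfdp1, E2f5 and Rbl1 had the smallest p in HSC and Tfdp1, Lin37 and E2f8 in MPP, with adjusted p of 0.777 and above.

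Calls of HSC over MPP were split by the CHR letters among the genes with a promoter entry. In Lepr+ cells 4 of 28 with the letters and 2 of 7 without them were called higher, against 0.26% of all genes. In Lepr- cells these were 9 of 28 and 4 of 7, against 1.22%. Birc5, Mad2l1, Tacc3 and Ccnb1, all called in Lepr- cells, have no CHR letters in their windows. Counts of some genes are uncertain because reads carried no strand. In all, 14 of the 44 share exonic bases with another gene, 6 of them over at least 10% of their length, and Ccnb1, Ccnb2 and Kif4 have a named pseudogene that could take some of their reads.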

How the data were processed

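RNA of 20 sorted samples, 5 per group, was sequenced from SMART-Seq v4 cDNA and Nextera XT libraries as unstranded read pairs on a NovaSeq6000, per the labels. The deposited values are raw counts per gene, for which the submitters' processing notes name STAR 2.7.1a, HTSeq 0.11.2, cutadapt 2.1, FastQC 0.11.8, DESeq2 and GRCm38. The counting mode is not given in the sources used here, and a label speaks of RNA depleted of ribosomal RNA without naming the step. Counts were deposited per library, and no filter is recorded.

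Symbols, positions and lengths came from GENCODE M21 and promoters from RefSeq. Groups were compared in edgeR 4.0.16 (R 4.3.3) with quasi-likelihood tests on all 20 libraries, TMM scaling, filterByExpr at its defaults (count minimum 10, total minimum 15), group as the only term, two-sided p adjusted by Benjamini-Hochberg over 16509 genes and a threshold of 0.05. Mean log2 CPM used a prior count of 2. The step was run on simulated counts of independent libraries, without shared pools or a length trend, so how it behaves with these was not tested. Alternatives were limma 3.58.1, DESeq2 1.42.0, other scaling and filters, left-out libraries, months, a length offset and the replicate number as a block. The design text gives 2 mice per replicate, and each number carries 1 date in all groups, so the number was taken to mark 1 pool. Deviations from the group means correlated at a median of 0.264 over 30 pairs of the same number and -0.0857 over 120 pairs of different numbers. The p-values of the main fit reflect the spread between libraries within a group, and leave the shared number unused. Those with the block reflect the spread that is left once the replicate number is accounted for.

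Genes given per library were all those past the threshold and, per comparison, the 4 of smallest p, or 2 where none passed. The members, the lists and this rule were chosen with earlier results of these data known.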

Additional observations from a re-analysis of the deposited data

Results flagged for a closer look

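In groups of 5 libraries the highest or lowest value was checked for a gap to the others, in 76 groups of values. Of these, 10 had a library apart, and chance gives about 1 in 20. Most are single genes. Aurkb was low in Lepr+ HSC 2 (77.1 CPM) and in Lepr- MPP 2 (23 CPM). Cdca3 was high in Lepr- HSC 4 (125.7 CPM) and Cdca8 in Lepr- HSC 3 (200.8 CPM). Cenpa was high in Lepr+ MPP 4 (190.5 CPM), the library in which the mean log2 CPM was lowest, at 2.17 over the 44 genes and 3.70 over the 22 shorter ones. In Lepr- MPP 4 the mean was also low, at 3.75 over the 44 genes and 1.76 over the 22 longer ones, while Mad2l1 was high there (110.6 CPM).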

How the results depend on the processing

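No gene of the 44 past the threshold changed sign under any alternative run, but fold changes that did not pass did. In a single alternative up to 11 of 44 changed sign for HSC over MPP in Lepr+ cells, 3 in Lepr- cells, 7 for Lepr+ over Lepr- HSC, 12 for MPP and 15 for the interaction. In July alone Mki67 and Cenpa had -0.90 and -0.12 for HSC over MPP in Lepr+ cells, and Ect2 and Kif23 had -0.04 and -0.13 for Lepr+ over Lepr- HSC, where in June alone Ttk had -0.12. Of 1100 values of named genes, 960 kept their side of the threshold, 134 lost it and 6 gained it. With the replicate number as a block, the calls higher in HSC were 13 in Lepr+ cells (8 without it) and 19 in Lepr- cells (15 without it), and 1 gene was lower in Lepr+ than in Lepr- HSC (0 without it). It changed no other call among the 44 genes. The following were added after seeing the data. The block without Lepr+ HSC 5 and Lepr+ MPP 4 and 5 gave 13, 28 and 1 in the same order, DESeq2 with the block 17, 23 and 4, with 1 lower in Lepr+ MPP, and the length offset with the block 15, 23 and 2. Of the other alternatives, DESeq2 gave 14 in Lepr+ cells and, without those 3 libraries, 23 genes were called in Lepr- cells. The Lepr+ count was 1 when the fit held only the 2 groups compared. June replicates alone gave 0 in Lepr+ cells and 4 in Lepr- cells, and July replicates alone 0 and 0. Leaving out 1 library gave 5 (without Lepr+ MPP 2) to 9 in Lepr+ cells and 13 to 18 in Lepr- cells. Leaving out 1 replicate number gave 1 to 9 in Lepr+ cells (1 without replicate 3, 2 without replicate 2) and 7 to 16 in Lepr- cells (7 without replicate 3, 8 without replicate 2). The cause of these changes was not tested. Fits that leave libraries out hold fewer samples. Those 3 libraries are all Lepr+, so the Lepr- counts of 15 and 23 compare the same libraries. The dispersion and the gene filter, shared by all groups in a fit, did change. The HSC over MPP calls held without any 1 library for 5 of 8 genes in Lepr+ cells and 13 of 15 in Lepr- cells. Low counts of long genes in the libraries with fewer genes limit what can be seen there.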
